A study of Drosophila melanogaster with 3 samples.

Results

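The genes described here encode subunits of respiratory complex I, and they were taken as all protein-coding genes on the major chromosome arms whose Ensembl symbol begins with ND-. The rule gave 40 of 13945 coding genes. Of these, 34 carry the standard symbols and 6 carry symbols ending in L, L1 or L2, the form used for a second, similar gene, and are called copies below (ND-20L, ND-24L, ND-49L, ND-51L1, ND-51L2 and ND-B14.5AL). ND-MNLL was counted among the standard genes. The data are chromatin immunoprecipitation and sequencing (ChIP-seq) peaks of BEAF-32, a Drosophila DNA-binding protein of chromatin boundaries and gene starts, in whole Drosophila melanogaster embryos of mixed sex aged 0 to 14 hours. The embryos came from a transgenic line that stably expresses BEAF-32 with green fluorescent protein at its C terminus, and the fusion was pulled down through that tag from chromatin sonicated to 200 to 800 bp. There were 3 biological replicates of this single group and no second group. The values come from whole embryos, so each is a sum over cell types, and peak lists give no marker levels with which to check that makeup.

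Complex I is the entry point of the mitochondrial respiratory chain: it takes electrons from NADH, passes them to ubiquinone and pumps protons across the inner membrane. Its matrix arm holds the NADH-oxidising (N) and quinone-reducing (Q) modules with flavin and iron-sulfur clusters, its membrane arm holds the proton pumps, and many accessory subunits surround both. The core pump subunits are encoded in mitochondrial DNA and are not among the genes here, which are nuclear. Roles given below are those of the human orthologues.

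A gene was called bound when a summit, the highest point of a peak, lay within 500 bp of any of its annotated starts in the authors' combined list, which had passed the irreproducible discovery rate (IDR) threshold. The bases at 7 starts are shown because they carry the contrasts described below. They run 5′ to 3′ on the gene's strand in the RefSeq genome of the dm6 assembly, and close with the first 30 bases of the transcript. Capitals mark CGATA, the string BEAF-32 is known to bind, on either strand (TATCG when read on the other one), TATCGATA, the element of the factor Dref, and GGTCACACT, known as core promoter motif 1. The first 4 belong to genes with strong peaks, namely ND-SGDH (chr3L:12138555-12138784, minus strand), ND-42 (chr3R:22027451-22027738, plus strand), ND-B14.5A (chrX:2172326-2172555, plus strand) and ND-15 (chr2L:114526-114755, plus strand).
ND-SGDH: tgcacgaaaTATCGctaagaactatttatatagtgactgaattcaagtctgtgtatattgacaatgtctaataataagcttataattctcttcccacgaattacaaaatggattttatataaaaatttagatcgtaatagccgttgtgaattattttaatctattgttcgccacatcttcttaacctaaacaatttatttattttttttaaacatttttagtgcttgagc
ND-42: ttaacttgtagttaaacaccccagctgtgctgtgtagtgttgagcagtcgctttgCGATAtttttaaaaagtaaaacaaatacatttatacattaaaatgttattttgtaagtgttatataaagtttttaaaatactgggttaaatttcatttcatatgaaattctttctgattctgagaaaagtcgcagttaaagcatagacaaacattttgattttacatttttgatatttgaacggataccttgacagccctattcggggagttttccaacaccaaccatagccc
ND-B14.5A: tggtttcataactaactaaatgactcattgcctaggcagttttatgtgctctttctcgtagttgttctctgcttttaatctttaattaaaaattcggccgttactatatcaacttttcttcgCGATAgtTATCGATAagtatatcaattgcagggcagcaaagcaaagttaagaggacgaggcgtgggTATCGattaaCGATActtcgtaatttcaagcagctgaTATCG
ND-15: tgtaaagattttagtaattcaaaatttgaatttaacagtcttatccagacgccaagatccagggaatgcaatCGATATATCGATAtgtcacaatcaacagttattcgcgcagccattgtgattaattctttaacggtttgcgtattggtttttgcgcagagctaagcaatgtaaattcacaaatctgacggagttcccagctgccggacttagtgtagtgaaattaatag
ND-24 (chrX:17632018-17632118, plus strand) and its unbound copy ND-24L (chr3L:17320782-17321011, minus strand) form a pair, and ND-B17 (chr2L:15751049-15751278, minus strand) has a weak peak over core promoter motif 1.
ND-24: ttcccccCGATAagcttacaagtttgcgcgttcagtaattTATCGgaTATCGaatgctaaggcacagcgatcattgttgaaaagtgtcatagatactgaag
ND-24L: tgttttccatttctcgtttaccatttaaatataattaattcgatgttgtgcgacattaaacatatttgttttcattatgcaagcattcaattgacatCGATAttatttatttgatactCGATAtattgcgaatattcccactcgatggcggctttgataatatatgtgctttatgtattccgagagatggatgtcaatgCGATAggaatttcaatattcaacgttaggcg
ND-B17: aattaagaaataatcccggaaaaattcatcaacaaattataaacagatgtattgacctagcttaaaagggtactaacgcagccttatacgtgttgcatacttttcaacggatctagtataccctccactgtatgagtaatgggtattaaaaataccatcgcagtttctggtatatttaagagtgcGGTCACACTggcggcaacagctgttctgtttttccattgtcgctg
The stretch at ND-B14.5A holds 6 matches to CGATA, counting a TATCGATA once on each strand, that at ND-15 holds 3, and that at ND-SGDH holds 1, well upstream of its summit. ND-24 and ND-24L both hold 3, but the stretch shown is shorter at ND-24 (101 bases) than at ND-24L (230 bases). Within 200 bp of the outermost start, ND-24 has 5 matches and ND-24L has 3.

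Nearly all standard complex I genes had a listed BEAF-32-GFP summit at a start in the combined list, and no copy had one there. Of the 34 standard genes, 32 were bound (94.1%), against 43.7% of all 13945 coding genes. Of the 6 copies, 0 were bound. The 2 unbound standard genes were ND-B14, an accessory subunit of the matrix arm, and ND-B14.7, one of the membrane arm. Both had weaker summits in the relaxed list that the authors made from the pooled replicates before the threshold, so that all 34 standard genes had a summit there within 500 bp, against 59.7% of coding genes and 0 of 6 copies. Members and lists were chosen with results of these data known, so these shares are descriptions, set beside all coding genes without a test.

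**Figure D1:**
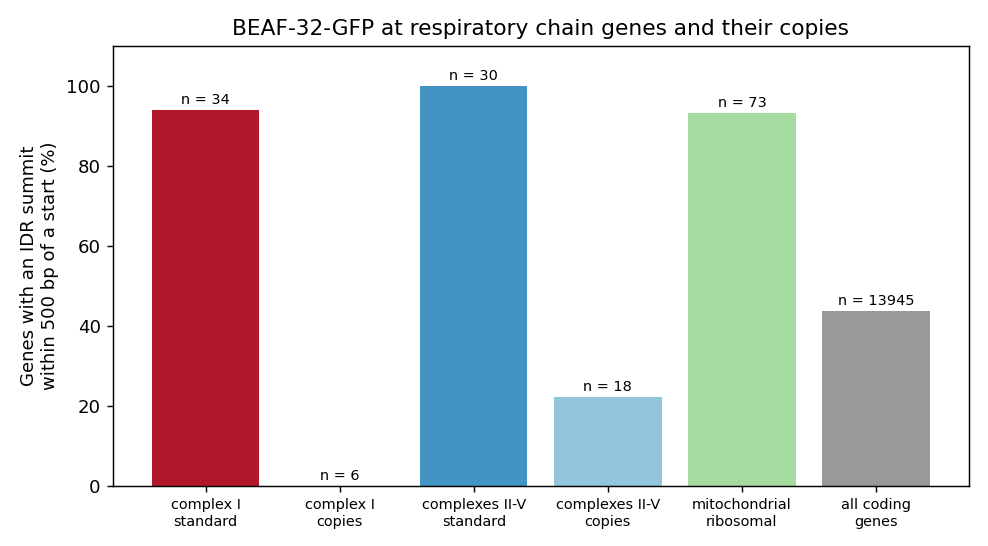
Share of bound genes (vertical axis, percent, IDR list, 500 bp window) for complex I standard genes and copies, complexes II to V standard genes and copies, mitochondrial ribosomal protein genes and all coding genes, with the number of genes above each bar. Complexes II to V are the genes with symbols beginning Sdh, UQCR-, COX or ATPsyn. The bars of standard genes reach 94.1% for complex I and 100% for complexes II to V, against 43.7% for all coding genes, and the bar of complex I copies is at 0.

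The replicates taken singly gave the same picture for most members. When as many of the strongest summits were taken from each replicate's own list as the IDR list holds, 32, 30 and 32 of the 34 standard genes were bound in replicates 1, 2 and 3, against 42.9%, 39.5% and 42.2% of coding genes. The standard genes thus averaged 92.2% ± 3.40, and all coding genes 41.5% ± 1.77 (SD, n = 3). In every replicate 30 of 34 were bound (88.2%), against 38.6% of coding genes, and no copy was bound in any. The exceptions in replicate 2 were ND-30, whose peak ranked 7356 there, and ND-AGGG, whose peak ranked 8208. At ND-AGGG 61.5% of the 31-base strings within 500 bp of the start occur once in the genome, against 100% at most other members. Whether this bears on its rank was not tested. The order of ranks over the 32 bound genes was close between libraries, with Spearman's rho of 0.956 for replicates 1 and 2, 0.989 for 1 and 3 and 0.974 for 2 and 3. These points are genes chosen as bound in the pool of the same libraries, so no p is given. Summits of a gene lay within a median of 29.5 bp of each other across replicates, and within 50 bp at 23 of 32 genes, with the widest range, 221 bp, at ND-30.

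**Figure D2:**
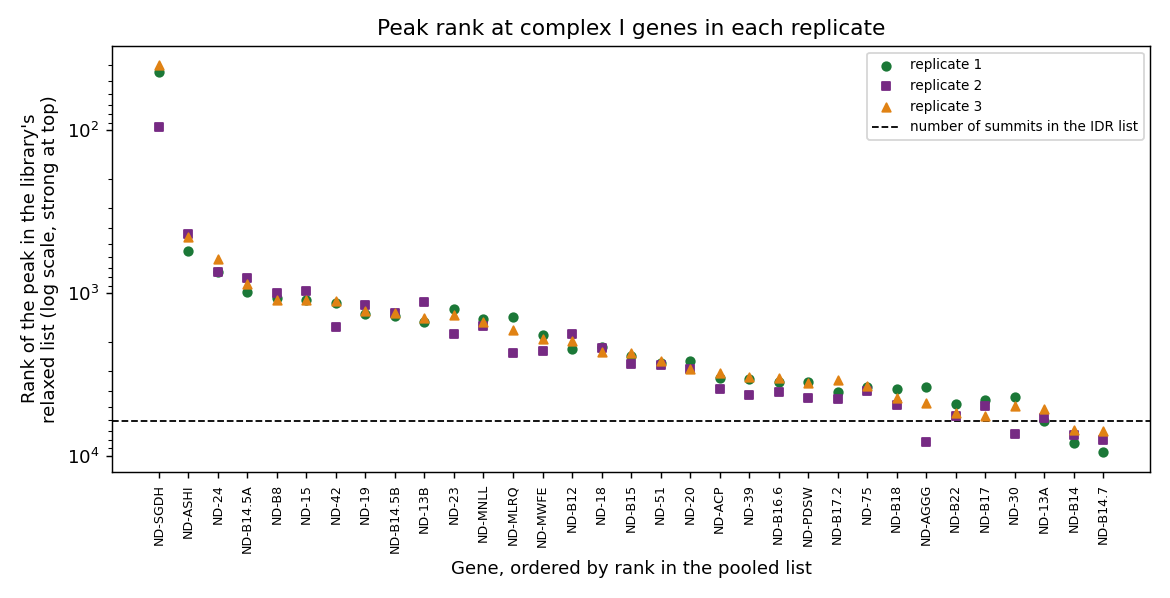
Rank of the strongest peak within 500 bp of a start in each replicate's own relaxed list (vertical axis, log scale, strongest at the top) for 33 standard genes, ordered by rank in the pooled list, with 1 symbol per replicate and a dashed line at the number of summits in the IDR list. ND-SGDH stands at ranks 44, 96 and 40, and ND-B14 and ND-B14.7 lie below the line in every replicate.

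Signal, the authors' own value for peak height on a scale that is not stated, ran from 218 to 12136 over the 32 bound genes in the IDR list and is used only to order peaks within that list. Read depth was not given in the sources used here. Over these genes the median was 1166, against 1096 for all bound coding genes. This order turned round when the nearest summit was taken in place of the strongest, with 756 at complex I genes, against 976 at bound coding genes. Peaks above the median of the IDR list, 579, were found at 20 of the 32 genes (62.5%), against 65.3% of bound coding genes. The strongest 607 summits held 2 members (6.25%), ND-SGDH and ND-ASHI, against 15.3% of bound coding genes.

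The core subunits of the matrix arm were all bound. ND-24 (NDUFV2), an iron-sulfur subunit of the N module, had a signal of 5231 and ranks of 747, 742 and 622 in replicates 1, 2 and 3. ND-51 (NDUFV1), which binds NADH and flavin, had a signal of 845 and ranks of 2676, 2768 and 2603. ND-75 (NDUFS1), the large iron-sulfur subunit, had a signal of 445 and ranks of 3760, 3990 and 3739. The order of these 3 N module genes was the same in each library. Of the Q module, ND-23 (NDUFS8), an iron-sulfur subunit, had a signal of 2721 and ranks of 1257, 1791 and 1365. ND-20 (NDUFS7), which carries the last iron-sulfur cluster before ubiquinone, had a signal of 789 and ranks of 2614, 2943 and 2937. ND-30 (NDUFS3) was lowest of the core genes, with 234 and ranks of 4322, 7356 and 4917. The Q module genes named here, which leave out 1 of the module, also kept 1 order in each library. Nothing is said here of the order of the whole module. The median over the 7 core genes was 845.

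Of the 8 accessory genes of the matrix arm, 7 were bound, with a median signal of 1224. ND-B14.5A (NDUFA7) led with 4366 (ranks 985, 814 and 881 in replicates 1, 2 and 3), followed by ND-B8 (NDUFA2) with 3823 (1069, 1004 and 1100) and ND-13B (NDUFA5) with 2840 (1500, 1140 and 1414). ND-18 (NDUFS4), whose human orthologue is a known site of Leigh syndrome mutations, had 1224. ND-39 (NDUFA9) had 535 and ND-B17.2 (NDUFA12) had 446. ND-13A (NDUFS6), a zinc-binding subunit in mammals, had the weakest peak of all bound members, with 218 and ranks of 6069, 5867 and 5179. Its peak in replicate 1 was the last but one of those counted there.

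The strongest peaks of the set, at ND-SGDH and ND-ASHI, were at genes of the membrane arm. Of its 17 accessory genes 16 were bound, with signals from 256 to 12136 and a median of 1563. ND-SGDH (NDUFB5, FBgn0011455) had the region from 12137918 to 12139466 on 3L, with a signal of 12136, rank 47 in the IDR list and ranks of 44, 96 and 40 in replicates 1, 2 and 3. ND-ASHI (NDUFB8, FBgn0029888) on X had a signal of 6324, rank 479 in the IDR list and ranks of 555, 437 and 453 in replicates 1, 2 and 3. In each replicate ND-SGDH ranked above ND-ASHI, and ND-ASHI above every other member. Next within the membrane arm came ND-15 (NDUFS5) with 3799, ND-42 (NDUFA10) with 3190, ND-19 (NDUFA8) with 3126 and ND-B14.5B (NDUFC2) with 3051. These lay between ranks 974 and 1621 in the replicates. A middle group had ND-MNLL (2500.5), ND-MWFE (1616), ND-B12 (1511) and ND-B15 (990). The weaker peaks were at ND-B16.6 (513), whose human orthologue is also known as GRIM-19, ND-PDSW (455), ND-B18 (366), ND-AGGG (295), ND-B22 (264) and ND-B17 (256).

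ND-ACP, the mitochondrial acyl carrier protein found in both arms, had a signal of 561 and ranks of 3322, 3863 and 3095 in replicates 1, 2 and 3. ND-MLRQ belongs to the NDUFA4 family, which is now placed in complex IV in mammals, and had 2085 and ranks of 1405, 2342 and 1683. Both were bound in every replicate.

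**Figure D3:**
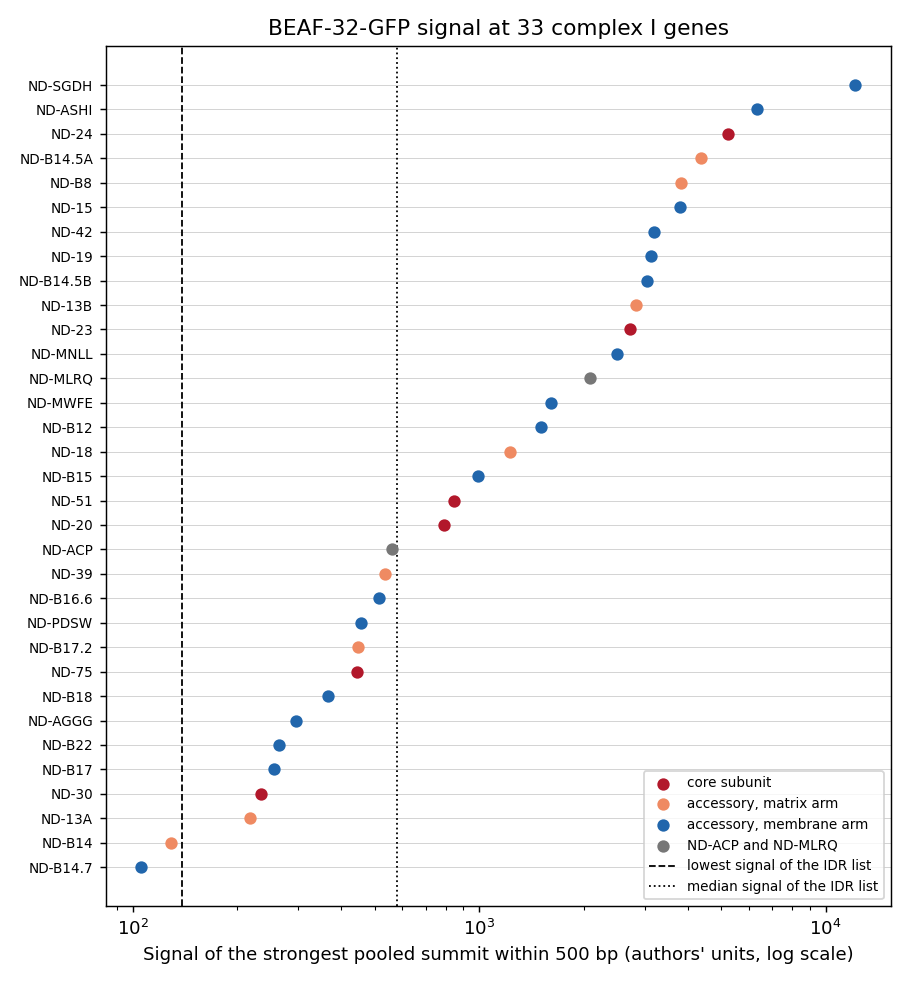
Signal of the strongest pooled summit within 500 bp of a start (horizontal axis, authors' units, log scale) for 33 standard complex I genes, coloured by the place of the subunit, with the lowest and the median signal of the IDR list as dashed and dotted lines. The core subunits shown run from 234 (ND-30) to 5231 (ND-24), and accessory ones from 106 (ND-B14.7) to 12136 (ND-SGDH). ND-B14 (129) and ND-B14.7 (106) stand just under the lowest IDR signal of 139.

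The unbound standard genes lay just below the limit of the list. The IDR list holds the top of the pooled list, down to a signal of 139. ND-B14 (NDUFA6) had a pooled summit 2 bp upstream of its start with a signal of 129 and a rank of 6272, and it ranked 8357, 7457 and 6927 in replicates 1, 2 and 3. ND-B14.7 (NDUFA11) had a pooled summit 44 bp downstream of its start with a signal of 106 and a rank of 6801, and it ranked 9486, 7929 and 7011. Each replicate's own list thus had a summit at both genes, outside the strongest ones counted. The nearest IDR summits were 1203 bp upstream of ND-B14 and 7351 bp upstream of ND-B14.7. Both genes are on 2R, where 4 of 6 standard members were bound, against 43.7% of the arm's coding genes. On the other arms all standard members were bound, with 9 of 9 on X, 9 of 9 on 2L, 7 of 7 on 3L and 2 of 2 on 3R among them. The bound shares of all coding genes on X, 2L, 3L and 3R were 49.6%, 39.7%, 42.1% and 43.8%.

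Summits sat just upstream of the member's nearest annotated start at most members, as they did at most bound coding genes. Of the 32, 30 lay upstream (93.8%), against 91% of bound coding genes, and 24 lay within 100 bp (75%), against 60.9%. The median distance was 57 bp at complex I genes and 73 bp at bound coding genes. These figures are for the strongest IDR summit of each gene. Of those, only the summits of ND-ASHI, 7 bp, and ND-24, 51 bp, lay downstream of the nearest start, both in 5′ untranslated sequence. Several genes have alternative starts, and a summit upstream of the nearest start can lie downstream of another. Examples are ND-13A, ND-B14.5B, ND-B18 and ND-B22, whose summits were also in 5′ untranslated sequence. In single replicates the side could change, and ND-ASHI had its summit 3 and 10 bp upstream in replicates 2 and 3. Weaker IDR summits also lay downstream, such as 4 bp at ND-B12 and 27 bp at ND-B15. The farthest of the strongest summits was that of ND-39, 358 bp upstream. ND-39 also had a second IDR summit 1 bp upstream of a start with a signal of 431. By annotation 22 of the 32 summits were intergenic, 6 lay in a 5′ untranslated region, 3 in an intron and 1 in an exon of a non-coding gene. More than 1 IDR summit lay within 500 bp at 10 of the 32 genes (31.2%), against 22.3% of bound coding genes. ND-15 had 3.

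**Figure D4:**
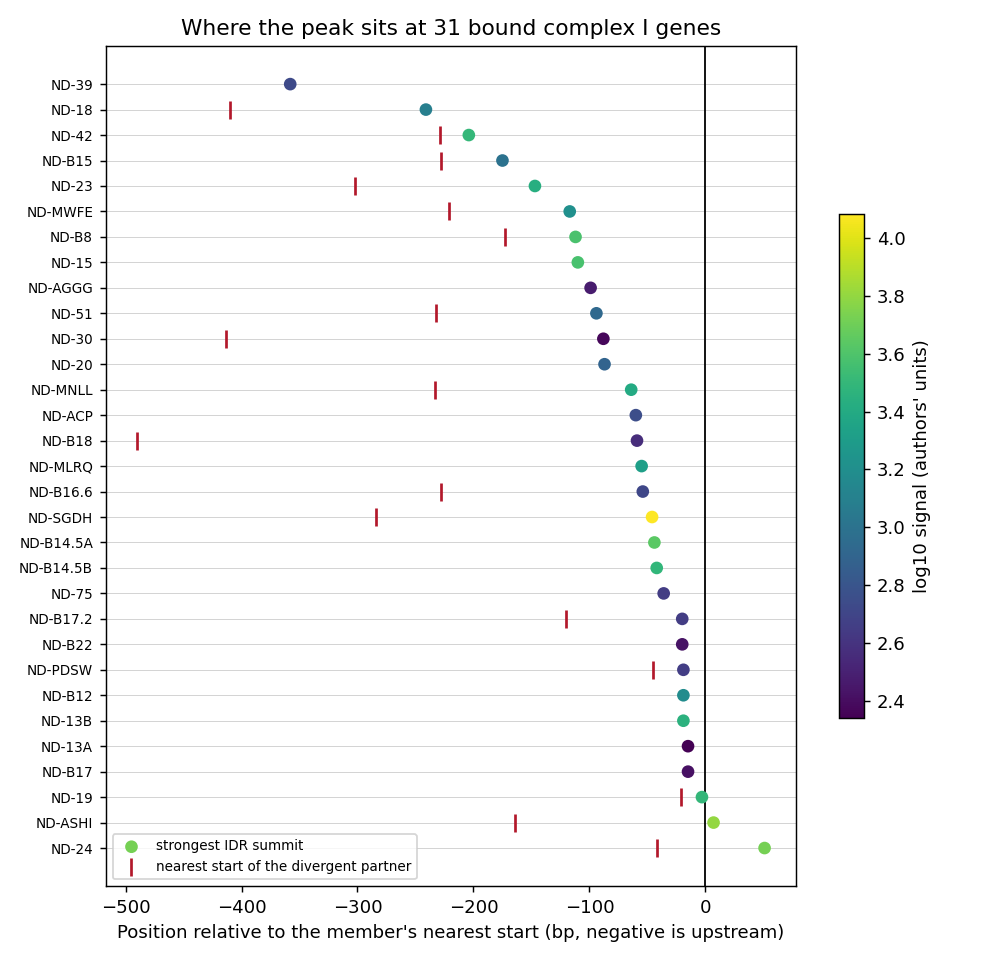
Position of the strongest IDR summit (points, coloured by log10 signal) and of the nearest start of the divergent partner (red ticks, where it lies within 500 bp of the summit) relative to the nearest start of 31 bound standard genes (horizontal axis, bp, negative is upstream). The points run from 358 bp upstream at ND-39 to 51 bp downstream at ND-24, and 17 genes have a tick.

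Many complex I genes start head to head with another coding gene. Such a divergent partner, with starts at most 1000 bp apart, was found at 22 of 34 standard genes (64.7%), against 36.2% of coding genes, and at 0 of 6 copies. All 22 were bound, against 76.8% of coding genes with a partner. Of the 12 standard genes without a partner 10 were bound (83.3%), against 24.9% of coding genes without one. When genes with any other coding start within 1000 bp were left out, 8 of 10 standard genes were bound (80.0%), against 24.8% of such coding genes and 0 of 6 copies. The members without a partner had a median signal of 1150, against 651 for bound coding genes without one. Members with a partner had 1166, against 1501 for bound coding genes with one. The high share of bound members was therefore present both with and without a divergent neighbour.

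The partners encode proteins of varied roles, and those named first were picked after their names were seen. ND-ASHI starts 164 bp from Fum1, a fumarase, ND-B16.6 starts 228 bp from kdn, citrate synthase, and ND-42 starts 229 bp from Cchl, which attaches heme to cytochrome c. ND-PDSW starts 45 bp from msl-2, the dosage compensation gene, ND-24 starts 42 bp from corolla, a synaptonemal complex gene, and ND-23 starts 302 bp from spn-E, a helicase gene of the piRNA pathway. ND-SGDH starts 284 bp from RhoGAP68F, a GTPase-activating protein gene. The remaining partners at the same summit were Secp43 (ND-B8), CG30161 (ND-19), p115 (ND-MNLL), TppII (ND-MWFE), pcm (ND-18), CG10151 (ND-B15), CG13994 (ND-51), Arpc5 (ND-B17.2), hiw (ND-B18) and CG15812 (ND-30). The median gap between starts was 228.5 bp at complex I genes and 298 bp at all coding genes with a partner.

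A peak at a shared promoter cannot be assigned to either gene. The partner also had a start within 500 bp of the summit at 17 of 22 members (77.3%), against 89% of bound coding genes with a partner, and the summit lay between the starts at 15 of 22 (68.2%), against 81%. It was nearer to the complex I gene at 17 of 22 (77.3%), against 54.9% of such coding genes being the nearer one. At ND-42 the summit was 204 bp from the member, nearer to Cchl, and its place varied by 18 bp across the replicates. The members whose partner started farther than 500 bp from the summit included ND-13A (Msp300), ND-15 (Pus10), ND-39 (ZnT77C) and ND-75 (CG1632), some of them paired through an alternative start. Of the 22 partners 21 were bound (95.5%), against 94.6% for partners of bound coding genes, and CG1632 was the exception.

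CGATA stood near most of the stronger complex I peaks and was mostly missing from the weaker ones, as it was over all IDR summits. It was found on either strand within 100 bp of the summit at 18 of 32 genes (56.2%), against 65.2% of bound coding genes and 58.3% of all IDR summits. Among peaks above the median of the IDR list it was at 15 of 20 members (75%), against 79.7% of summits, and among those below it at 3 of 12 (25%), against 36.8%. The median signal was 2780 at the 18 members with CGATA and 451 at the 14 without it, and all bound coding genes gave 2388 and 435. The range with CGATA was 445 to 6324. The range without it was 218 to 12136, since ND-SGDH, with the strongest peak of the set, had none within 100 bp of its summit. The ND-SGDH summit was 46 bp upstream of the start. Matches at ND-SGDH lay farther off, at 189 bp upstream and between 66 and 154 bp downstream of the start. They include a TATCGATA centred 67 bp downstream of the start, in the 5′ untranslated region. That element lay inside the peak region and only slightly beyond the 100 bp counted around the summit.

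TATCGATA, which contains CGATA and reads the same on both strands, was within 100 bp of the summit at 7 of 32 members (21.9%), against 20.6% of bound coding genes. These were ND-ASHI, ND-B14.5A, ND-15, ND-19, ND-B14.5B, ND-23 and ND-B15, with signals from 990 to 6324 and a median of 3126, against 789 at the other 25. GGTCACACT was within 100 bp of the summit at 3 of 32 members (9.38%), against 10.3% of bound coding genes. These were ND-PDSW, ND-B17 and ND-13A, with signals from 218 to 455. Within 200 bp of the outermost start it stood at 8 of 34 standard genes (23.5%), against 6.07% of coding genes and 0 of 6 copies. ND-SGDH, ND-MWFE, ND-18, ND-ACP and the unbound ND-B14 were the others. CGATA within 200 bp of the outermost start was at 18 of 34 standard genes (52.9%), against 3 of 6 copies and 54.2% of coding genes. A match is a run of letters and does not show that a factor binds there.

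The copies had no summit near their starts in the pooled list, at any strength. In Drosophila many duplicates of nuclear genes for mitochondrial proteins are known to be expressed mainly in testis, and expression was not measured here. The nearest IDR summit was 1941 bp from ND-B14.5AL, 2628 bp from ND-51L1, 4296 bp from ND-20L, 10808 bp from ND-51L2, 18547 bp from ND-24L and 23027 bp from ND-49L. In the pooled relaxed list the nearest to any copy was 687 bp upstream of ND-51L1, at rank 22681. ND-51L1 was also the only copy with a summit within 500 bp in a replicate's whole list. It was 207 bp from the start at rank 11949 in replicate 2 and 384 bp from it at rank 24140 in replicate 3, while in replicate 1 the nearest was 685 bp away. The standard genes had such a summit at 34 of 34 in each replicate, while 50.1% of all coding genes had one in every replicate.

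**Figure D5:**
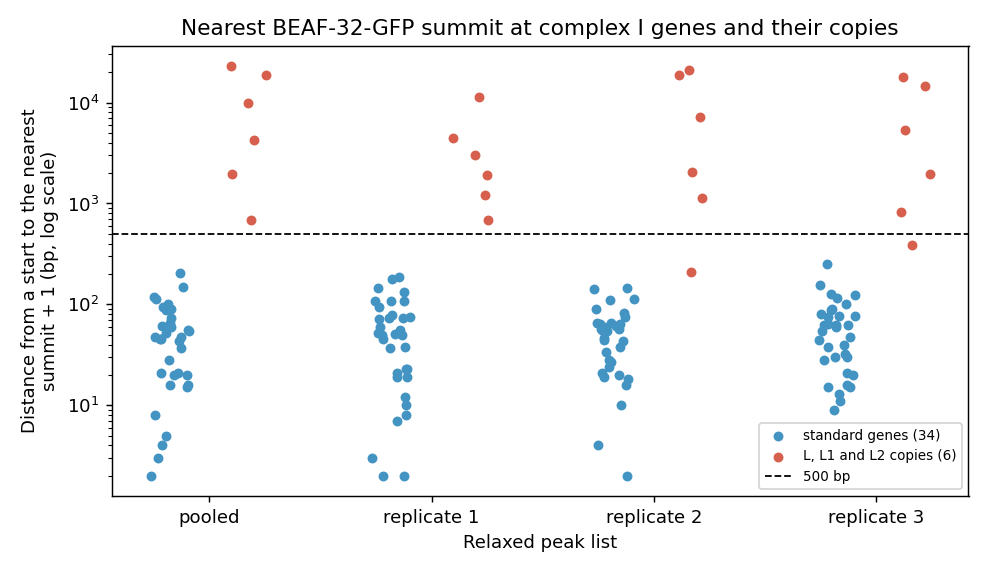
Distance from a start to the nearest summit, plus 1 (vertical axis, bp, log scale), in the pooled and the 3 replicate relaxed lists, for the 34 standard genes (left of each pair, blue) and the 6 copies (right, red), with a dashed line at 500 bp. Every standard gene lies under the line in each list, and the copies lie above it except for ND-51L1 in replicates 2 and 3.

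The standard genes and their copies differ in sequence and in setting. Their coding sequences were aligned, and identity was taken over the aligned bases only. It was 75.2% at ND-20L, 72.6% at ND-51L1, 69.3% at ND-B14.5AL, 62.3% at ND-24L and 61.5% at ND-51L2. Part of some copies had no aligned base, with 1421 of 2106 coding bases aligned at ND-51L1 and 306 of 435 at ND-B14.5AL. Every 31-base string within 500 bp of a copy's start occurs once in the genome, so strings of that length there differ from those of the standard gene. The aligner was not given, and whether mapping bears on the absence of summits was not tested. ND-24 has 4 exons, ND-51 has 4 and ND-B14.5A has 2, against 1 in each of ND-24L, ND-51L1, ND-51L2 and ND-B14.5AL. ND-20 and ND-20L have 2 each. ND-49L starts inside Fur1, ND-51L1 inside Smurf, ND-51L2 inside Trpm and ND-B14.5AL inside CG14459. The nearest start of another coding gene was between 2030 bp (ND-24L) and 31547 bp (ND-B14.5AL) away. The starts of ND-24 and ND-24L both hold CGATA, as the printed bases show, and ND-24 had a signal of 5231 while the nearest IDR summit to ND-24L was 18547 bp away. What separates standard genes and copies in binding was not tested.

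Other respiratory chain genes and some complex I assembly factors were set beside the share of 43.7% of all coding genes. Genes of complexes II to V were taken as those with symbols beginning Sdh, UQCR-, COX or ATPsyn. Any subunit with another symbol is left out. Mitochondrial ribosomal protein genes were those with symbols beginning mRpL or mRpS. Of the standard genes of complexes II to V taken in this way 30 of 30 were bound, with a median signal of 1082, against 4 of 18 of their copies (22.2%). The bound copies were ATPsynepsilonL, COX4L, COX7AL and COX7AL2, with a median of 310. Mitochondrial ribosomal protein genes were bound at 68 of 73 (93.2%), with a median of 864. A hand-picked list of 6 assembly factors, which help to build complex I without staying in it, is not complete, and 6 of 6 were bound. The signals were 7318 at CG5569 (the fly form of human NDUFAF3), 856 at Egm, 526 at ECSIT, 429 at sicily, 341 at CG11722 (NDUFAF4) and 292 at CIA30. CG11722 starts 32 bp from mtTFB2, a mitochondrial transcription factor gene.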

How the data were processed

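BEAF-32-GFP was measured by ChIP-seq in 3 replicates of 1 group, with replicate numbers from the labels. Per the file headers, the authors made a relaxed peak list from each replicate's alignment with a control, another from the pooled alignments, and an IDR list from these. Not given in the sources used here were the aligner, peak caller, thresholds and read totals. In all, 5 dm6 lists were used. The lists in dm3 were not used.

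Signal was deposited by the authors on an unstated scale and compared only by rank between lists. The deposited −log10 q-value was 4.24 at every IDR summit and was not used. The other value the authors deposited, the offset of the summit, was turned into a 1-based position. The relaxed lists held 30000 (pooled), 26497, 30000 and 30000 summits (replicates 1, 2 and 3).

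Genes and starts came from Ensembl BDGP6.54, release 115, and bases from the RefSeq genome of the same assembly. The strongest summit within 500 bp of any start was assigned to a gene. A partner was a coding gene transcribed away from starts at most 1000 bp apart. Strings were counted on both strands within 100 bp of a summit or 200 bp of the outermost start. All genes with the symbol pattern were accounted for, and beyond them only partners, a list of assembly factors and counts of related families are named. The values of 1 member and the bases at another are not reported here. Members and lists were chosen with earlier results of these data known, so no test was made. The error given is the SD over 3 replicates. Alternatives changed windows, starts, lists and the split of copies. The functions were tested on simulated data. Biopython 1.88, matplotlib 3.10.9, pandas 2.3.3, numpy 2.4.6 and scipy 1.17.1 were run in Python 3.11.15.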

Additional observations from a re-analysis of the deposited data

How the results depend on the processing

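The count of 32 bound standard genes was 31 to 34 with windows of 250 or 1000 bp, outermost starts, regions covering a start, the whole pooled list, or ND-MNLL taken as a copy. Under these settings, in that order, 39.4%, 46.3%, 42.2%, 41%, 59.7% and 43.7% of all coding genes were bound. It was 20 of 34 above the median signal of the IDR list (28.5% of coding genes) and 8 of 10 without members near another gene's start (24.8%). The count of bound copies was 0 under the alternatives run, except that it was 1 of 7 with ND-MNLL as a copy. Divergent partners numbered 20 within 500 bp (27.4% of coding genes), 18 by outermost starts (33.3%) and 14 of 34 within 250 bp (14.2%). The median signal of 1166 became 756 with the nearest summit in place of the strongest (976 for coding genes). The 18 members with CGATA numbered 14 within 50 bp (45.3% of IDR summits) and 22 within 200 bp (70.3%). At the nearest summit they numbered 15 (58.3%). The 30 members bound in every replicate numbered 34 with whole lists (50.1% of coding genes). With a smaller set, the stronger part of the regions counted in each list, they numbered 19 (24.4%). They numbered 30 to 32 when each replicate was left out (38.9% to 41.3%). No paired analysis was possible because the 3 libraries form 1 group.

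Read depth is unknown, so weak peaks such as ND-13A, ND-B14 and ND-B14.7 could not be given a counting error, and the absence of a listed summit is not absence of binding.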
